A study of Mus musculus with 6 samples.

Results

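The genes described here encode the subunits of the mitochondrial respiratory chain and the ATP synthase, in the nuclear genome and in mitochondrial DNA (mtDNA). They were chosen by symbol (Nduf, Sdh, Uqcr, Cyc1, Cox4 to Cox8 and Atp5 genes and the mtDNA mRNAs), without use of expression values. Pseudogenes and the Ndufaf assembly factors were left out, and subunits with other symbols, such as Ndufab1, are not counted. The rule took 97 of the 34745 genes in the table, 84 encoded in the nucleus and 13 in mtDNA. The cells were primary macrophages grown from wild-type mouse bone marrow in M-CSF at 20 ng/ml. Both groups were stimulated with R848 (resiquimod), an agonist of Toll-like receptors 7 and 8, at 100 ng/ml for 6 h. Of the 6 libraries, 3 came from cells pretreated with DMSO, a solvent, and 3 from cells pretreated with an inhibitor of KAT8, a lysine acetyltransferase best known for histone H4. The labels name neither the compound, its dose nor the length of pretreatment. Whether replicates were separate animals or cultures is not stated, so the spread behind each p-value is that of these libraries and may be technical. Every difference below is one between stimulated cells, since unstimulated cells were not analysed here.

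The respiratory chain sits in the inner mitochondrial membrane. Complex I oxidises NADH and complex II oxidises succinate, both passing electrons to coenzyme Q. Complex III hands them to cytochrome c and complex IV to oxygen, while complexes I, III and IV pump protons that drive the ATP synthase, also called complex V. Most subunits are made from nuclear genes and imported, and a few hydrophobic core subunits are made from mtDNA, whose strands are transcribed as long RNAs that are cut into single mRNAs. In macrophages, stimulation of Toll-like receptors is known to shift metabolism towards glycolysis, and complexes I and II are known as sources of reactive oxygen species. KAT8 has been reported in mitochondria as well as in the nucleus.

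Total counts ranged from 18441352 to 25089320 a library, and DMSO replicate 1 was the lowest. Levels below are TMM-scaled CPM, counts scaled to library size, and a count of 0 allows at most 0.116 to 0.166 CPM by library, the level of 3 counts. That limit covers counting error alone. Fold changes are inhibitor over DMSO with their standard error (SE), and genes were called at an adjusted p under 0.05 by edgeR's quasi-likelihood test, adjusted over all 13815 genes tested. Macrophage markers were abundant in all libraries, with a summed level of 11861 to 13535 CPM with DMSO and 7562 to 7639.6 CPM with the inhibitor, and 6 of 8 fell. Stromal cell markers such as Col1a1 were also present, at 6587 to 7526 CPM with DMSO and 3019 to 3242 CPM with the inhibitor, and 10 of 12 fell. Of the dendritic cell markers, Itgax, which macrophages also express, was at 786 to 869 CPM with DMSO and 455 to 484 CPM with the inhibitor. Zbtb46 was present too, at 17.5, 15.6 and 17.3 CPM with DMSO and 10.1, 9.75 and 9.13 CPM with the inhibitor. It fell by 0.80 on the log2 scale (edgeR adjusted p = 0.000128). Flt3, Xcr1 and Clec9a were at most 0.4 CPM in any library, with Siglech at 0. Markers of striated muscle summed to at most 1.98 CPM in any library, with Myh7 at 0, and those of T or NK cells to at most 0.578 CPM, with Cd3d, Cd8a and Nkg7 at 0. The part of these markers in the results below was not tested. Fewer cells of a type and less RNA per cell cannot be told apart in such bulk samples. Kat8 mRNA was at 15.5, 16.9 and 15.8 CPM with DMSO and 21.1, 20.8 and 20.4 CPM with the inhibitor, which says nothing of the enzyme's activity.

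Because several of these genes lie in tight or duplicated sequence, a few stretches show what the counts rest on. In mtDNA, the coding sequences of mt-Atp8 and mt-Atp6 overlap by 43 bases (GRCm38 annotation), so a read there could be given to either gene, to both or to none. The overlap is printed with the start codon of mt-Atp6 in capitals.

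mt-Atp8 and mt-Atp6 (chrM:7927-7969, plus strand): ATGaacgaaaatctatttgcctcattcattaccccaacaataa

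Promoters of nuclear respiratory chain genes are known for sites of the transcription factor NRF1. RefSeq windows from 250 bases before to 50 bases after the gene start (GRCm38.p6) were at hand for 68 of the 84 nuclear genes. The motif GCGCANGCG, read on both strands, was found in 19 of these 68 windows (27.9%) and in 1749 of all 27025 windows (6.47%). It was found in 7 of 28 windows of genes that fell, 1 of 4 of genes that rose and 11 of 34 of genes that were not called. The motif AAGATGGCG of YY1 was in 6 of the 68 windows (8.82%, against 1.49% of all), and CCGGAAGT, an ETS factor motif, in 5 (7.35%, against 4%). TCAAGGTCA, which the estrogen-related receptors bind, was in 2 windows (2.94%, against 0.407%), and GGGCGG, an SP factor motif, in 28 (41.2%, against 35.9%). A match is a description of these letters, not evidence of binding, and its absence says only that the letters are not in the window. The windows overlap between genes that share a promoter region and were not tested. Stretches of up to 150 bases just before the annotated exons are printed for the complex I gene with the largest fall, the ATP synthase gene with the smallest p, the only other gene whose stretch held an NRF1 match, and a gene that rose. Such stretches were at hand for 19 called genes, and 2 of them held a match. NRF1 matches are in capitals, and each stretch reads 5′ to 3′ on the strand of its gene.

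Ndufs8 (chr19:3912775-3912924, minus strand): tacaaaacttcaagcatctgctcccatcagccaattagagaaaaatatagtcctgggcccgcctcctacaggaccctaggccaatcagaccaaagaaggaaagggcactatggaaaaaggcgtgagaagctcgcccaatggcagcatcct

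Atp5h (chr11:115419963-115420112, minus strand): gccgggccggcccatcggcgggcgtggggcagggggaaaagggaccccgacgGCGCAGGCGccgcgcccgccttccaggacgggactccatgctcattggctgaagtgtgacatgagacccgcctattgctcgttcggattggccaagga

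Ndufs5 (chr4:123718203-123718352, minus strand): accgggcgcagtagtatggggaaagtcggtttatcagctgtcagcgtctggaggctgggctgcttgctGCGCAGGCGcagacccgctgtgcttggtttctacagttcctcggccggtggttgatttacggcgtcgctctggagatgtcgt

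Ndufc2 (chr7:97399853-97400002, plus strand): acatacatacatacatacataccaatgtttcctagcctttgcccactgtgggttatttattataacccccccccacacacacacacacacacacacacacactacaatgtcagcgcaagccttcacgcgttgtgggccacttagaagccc

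Atp5h and Ndufs5 each held 1 NRF1 match in the printed stretch, and the other 17 stretches held none, those of Ndufs8 and Ndufc2 among them. Over the whole windows the motif was in 11 of 34 of genes not called and 7 of 28 of genes that fell, a difference that was not tested.

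With the inhibitor, mRNAs of many nuclear-encoded subunits were lower, chiefly those of complex I, and the differences were small, within 2-fold for every called gene. Of the 84 nuclear genes 80 had enough counts to be tested. Of these, 33 fell, 5 rose and 42 were not called, with a median log2 fold change of -0.20 and a range of -0.90 to 0.89. With library totals in place of TMM, which raised the median of all genes from 0.01 to 0.12, 26 fell and 14 rose. Among all genes tested 51.5% were called, 24.9% higher and 26.5% lower (3446 and 3667 genes, or 4888 and 2842 with library totals). The share called among the nuclear genes (47.5%) was near that background, and it split into 41.2% lower and 6.25% higher. The values of the groups did not overlap for 44 of the 80, against 60.6% of all genes tested. The summed level of the 84 genes was 5498, 6217 and 6091 CPM with DMSO and 5588, 5483 and 5411 CPM with the inhibitor. DMSO replicate 1 lay among the inhibitor libraries, so the sum overlapped between the groups. That library also had the lowest DMSO level for 7 of the 10 genes in the plot of levels by library.

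**Figure D1:**
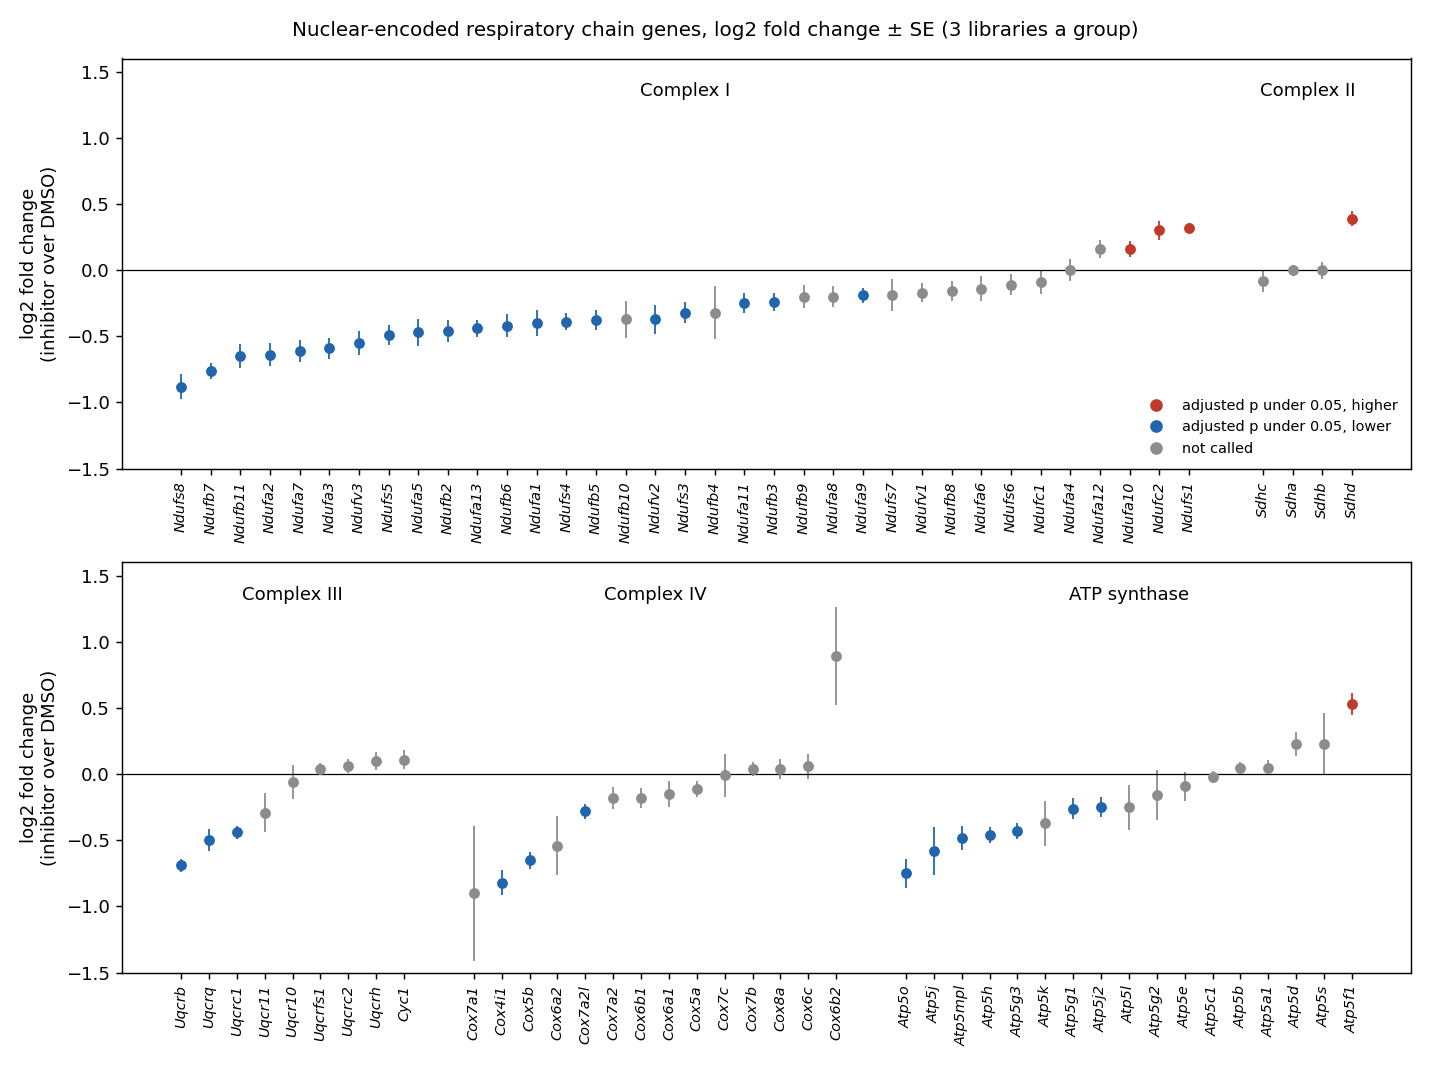
Log2 fold change (inhibitor over DMSO) with its SE for tested nuclear genes, sorted within complexes I to V and coloured by call, with 3 libraries a group. Most complex I genes lie below 0, and the called genes above 0 are Ndufa10, Ndufc2, Ndufs1, Sdhd and Atp5f1.

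Complex I had the largest share of called genes of the 5 complexes (63.9%, against 51.5% of all genes tested). Of its 36 nuclear genes 20 fell, 3 rose and 13 were not called, with a median log2 fold change of -0.32, and their summed level was 1329.6, 1483 and 1454 CPM with DMSO and 1249, 1221 and 1201 CPM with the inhibitor. Every inhibitor library was below every DMSO library in that sum. The same held for the nuclear sums of complex III (654, 707 and 727 against 631, 614 and 617 CPM) and complex IV (1029.9, 1226 and 1179.9 against 995, 949.6 and 951 CPM). That of complex II was higher in every inhibitor library (445, 498 and 484 against 505, 502 and 505 CPM), and that of the ATP synthase overlapped. The largest fall in complex I was that of Ndufs8 (ENSMUSG00000059734, chromosome 19, 3908863 to 3912774, minus strand), which carries iron-sulfur clusters near the site where coenzyme Q is reduced. Its level was 33.5, 42.6 and 39.7 CPM with DMSO and 20.8, 22.3 and 20.0 CPM with the inhibitor. The groups were well apart, and the log2 fold change was -0.88 (SE 0.096, adjusted p = 0.000143 by edgeR's quasi-likelihood test). Ndufb7 (ENSMUSG00000033938, chromosome 8, 83566671 to 83571626, plus strand), an accessory subunit of the membrane arm, had the smallest p of the complex. It was at 54.0, 61.0 and 59.4 CPM with DMSO and 33.9, 34.5 and 34.8 CPM with the inhibitor, a log2 fold change of -0.76 (SE 0.061, edgeR adjusted p = 2.56e-05). The inhibitor libraries lay within 1 CPM of each other and far below the DMSO libraries.

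By position in the complex, the genes of the Q module, which reduces coenzyme Q, fell or were not called. The core subunits Ndufs8 and Ndufs3 (-0.32) and the accessory subunits Ndufa7 (-0.61), Ndufa5 (-0.47) and Ndufa9 (-0.19) fell, which is 5 of 8. That is 62.5% called, all lower, against 51.5% called, 26.5% lower and 24.9% higher among all genes tested. In the N module, which oxidises NADH, 4 of 8 genes fell (50%) and 1 rose (12.5%), with 62.5% called. Those that fell were Ndufa2 (-0.64), Ndufv3 (-0.55), Ndufs4 (-0.39) and Ndufv2 (-0.37). Ndufs1, the largest core subunit and carrier of several iron-sulfur clusters, rose. Its level was 79.7, 79.2 and 79.6 CPM with DMSO and 98.3, 101 and 99.0 CPM with the inhibitor, a log2 fold change of 0.32 (SE 0.039, edgeR adjusted p = 0.00024). The libraries of each group lay close together and the groups were apart. Ndufa12, a further accessory subunit of this module, was not called (0.16), but was called higher with library totals (0.27) and with the trend with exon length removed (0.20).

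In the membrane arm, which pumps protons, 11 of 20 nuclear genes fell (55%) and 2 rose (10%). That is 65% called, against 51.5% called, 26.5% lower and 24.9% higher among all genes tested. None of the 10 Ndufb genes rose and 6 fell (60%), namely Ndufb7, Ndufb11 (-0.65), Ndufb2 (-0.46), Ndufb6 (-0.42), Ndufb5 (-0.38) and Ndufb3 (-0.24). The others that fell were Ndufa3 (-0.59), Ndufs5 (-0.49), Ndufa13 (-0.44), Ndufa1 (-0.40) and Ndufa11 (-0.25). Ndufa1 (ENSMUSG00000016427, X chromosome, 37187588 to 37191163, minus strand), the nuclear complex I gene with the highest level per exon length over both groups (second to Ndufa2 with DMSO alone), was at 28.6, 32.7 and 36.9 CPM with DMSO and 26.0, 22.9 and 25.6 CPM with the inhibitor (SE 0.10, edgeR adjusted p = 0.0105). Ndufc2, at 28.3, 33.4 and 32.6 CPM with DMSO, rose to 39.3, 39.0 and 37.8 CPM (log2 fold change 0.30, SE 0.073, edgeR adjusted p = 0.00934). The groups of both genes did not overlap. Ndufa10 rose by 0.16 (edgeR adjusted p = 0.0474), a call that was lost on leaving out any library except inhibitor replicate 3 (0.12 to 0.18). Ndufa4 is counted here with the membrane arm of complex I by its name, but is known from complex IV. It was at 76.6, 67.5 and 63.3 CPM with DMSO and 75.2, 66.6 and 64.7 CPM with the inhibitor, with full overlap.

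Several of the smaller falls depended on single libraries. The call of Ndufa11 was lost without DMSO replicate 2 or 3 or inhibitor replicate 1 or 3 (-0.20 to -0.25), as was that of Ndufa9 (-0.16 to -0.20). Ndufb3 lost it without DMSO replicate 3 (-0.21) or inhibitor replicate 3 (-0.23), and Ndufv2 without DMSO replicate 3 (-0.30) or inhibitor replicate 2 (-0.26) or 3 (-0.36). In the other direction, leaving out DMSO replicate 1 added 11 nuclear genes to those that fell, 6 of them of complex I, making 44. These were Ndufa6, Ndufa8, Ndufb10, Ndufb8, Ndufb9, Ndufv1, Sdhc, Cox5a, Cox6a1, Cox6b1 and Cox7a2, with log2 fold changes of -0.17 to -0.53. Leaving out any other library gave 26 to 31 falls. With library totals Ndufa11, Ndufa9, Ndufb3, Ndufs3, Ndufv2, Atp5g1 and Atp5j2 were not called (-0.08 to -0.26), and by DESeq2 neither were Atp5g1 and Atp5j. Ndufa11 (-0.17) and Ndufb3 (-0.12) were not called with the trend with exon length removed, and Ndufb10 (-0.37) was called lower by DESeq2.

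**Figure D2:**
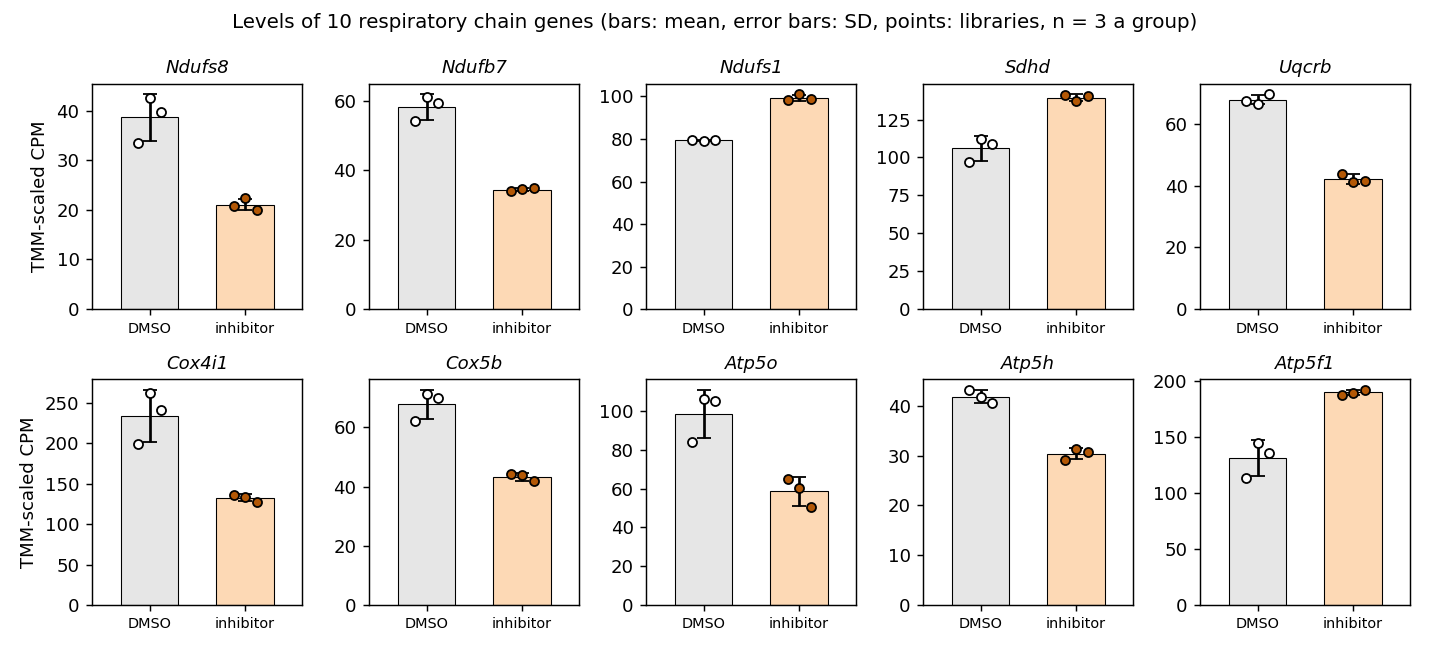
TMM-scaled CPM of 10 nuclear genes in each library (points), with the mean (bars) and SD (error bars) of 3 libraries a group, on axes that start at 0. Ndufs1, Sdhd and Atp5f1 are higher in all inhibitor libraries, and the other 7 genes are lower in all of them.

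Complex II, which also works in the tricarboxylic acid (TCA) cycle as succinate dehydrogenase, had 1 gene that rose, of 4, and none that fell. The share that rose (25%) was near the 24.9% of all genes tested, and the share called (25%) was below their 51.5%. Sdhd (ENSMUSG00000000171, chromosome 9, 50596357 to 50603812, minus strand) encodes a membrane anchor. It was at 96.9, 112 and 109 CPM with DMSO and 141, 137 and 140.4 CPM with the inhibitor, a log2 fold change of 0.39 (SE 0.058, edgeR adjusted p = 0.000725). All inhibitor libraries were above all DMSO libraries. The catalytic subunit Sdha was at 218, 230.1 and 222 CPM with DMSO and 224, 217 and 228 CPM with the inhibitor. Sdhb, the iron-sulfur subunit, was at 59.9, 70.3 and 66.1 against 63.9, 67.7 and 64.8 CPM, and Sdhc, the other anchor, at 70.3, 85.5 and 87.1 against 76.6, 80.8 and 72.0 CPM. These 3 overlapped between the groups, with fold changes of 0.00, 0.00 and -0.08 on the log2 scale. The ratio of Sdhd to Sdhb counts, which does not depend on scaling, was 1.62, 1.59 and 1.65 with DMSO, against 2.2, 2.02 and 2.17 with the inhibitor, where all values were higher. Sdhd starts 98 bases from Timm8b, an import chaperone gene on the opposite strand, whose log2 fold change was -0.05 (adjusted p = 0.619 by edgeR).

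In complex III 3 of 9 nuclear genes fell and none rose (median log2 fold change -0.06). Called genes, all of them falls, made up 33.3%, against 51.5% called and 26.5% lower among all genes tested. With library totals, however, Cyc1 (0.22), Uqcrh (0.21), Uqcrc2 (0.17) and Uqcrfs1 (0.15) rose. Uqcrb (ENSMUSG00000021520, chromosome 13, 66900617 to 66905378, minus strand), an accessory subunit, had the smallest p of all nuclear respiratory chain genes tested. It was at 67.5, 66.5 and 69.5 CPM with DMSO and 43.8, 41.0 and 41.4 CPM with the inhibitor, a log2 fold change of -0.69 (SE 0.051, edgeR adjusted p = 1.54e-05). The groups were far apart relative to their spread. The accessory subunit Uqcrq (-0.50) and the core protein Uqcrc1 (-0.44) also fell. The accessory subunit Uqcr11 (-0.29) was called lower only without DMSO replicate 2 (-0.44, edgeR adjusted p = 0.0211). The partner core protein Uqcrc2 was at 108, 118 and 122 CPM with DMSO and 121, 122 and 118 CPM with the inhibitor. Of the catalytic subunits, the Rieske protein Uqcrfs1 (0.04) and cytochrome c1, Cyc1 (0.11), were not called. Uqcr10 (ENSMUSG00000059534, chromosome 11, 4701973 to 4704342, minus strand), the nuclear gene of the complex with the highest level per exon length, was at 37.0, 44.9 and 54.5 CPM with DMSO and 40.9, 44.8 and 45.4 CPM with the inhibitor, inside the DMSO range (log2 fold change -0.06, SE 0.13, edgeR adjusted p = 0.724).

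In complex IV 3 of 14 tested nuclear genes fell and none rose (median log2 fold change -0.17), although Cox7b rose with library totals (0.15). The share that fell (21.4%) was below that of all genes tested (26.5%), as was the share called (21.4% against 51.5%). Cox4i1 (ENSMUSG00000031818, chromosome 8, 120668222 to 120674207, plus strand), the general isoform of a subunit through which ATP is known to modulate the enzyme, had the largest fall. It was at 199, 262 and 241 CPM with DMSO and 136, 134 and 128 CPM with the inhibitor, a log2 fold change of -0.82 (SE 0.092, edgeR adjusted p = 0.000161). The DMSO libraries spread more than the inhibitor libraries, and the groups did not overlap. Cox5b (ENSMUSG00000061518, chromosome 1, 36691449 to 36693681, plus strand), a zinc-binding subunit on the matrix side, was at 62.3, 71.2 and 69.9 CPM with DMSO and 44.3, 43.9 and 41.8 CPM with the inhibitor (log2 fold change -0.65, SE 0.064, edgeR adjusted p = 7.77e-05). Cox7a2l, known for joining complexes III and IV in supercomplexes, fell from 108, 125 and 117 CPM to 95.7, 97.4 and 95.3 CPM (log2 fold change -0.28, SE 0.057, edgeR adjusted p = 0.0042). In Cox5b and Cox7a2l too, every inhibitor library was below every DMSO library.

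The remaining general subunits of complex IV overlapped between the groups. Cox8a (ENSMUSG00000035885, chromosome 19, 7215153 to 7217616, minus strand), with the highest level per exon length of these nuclear genes over both groups (below Cox6a1 with DMSO alone), was at 129.7, 159 and 136 CPM with DMSO and 148, 145 and 145 CPM with the inhibitor (log2 fold change 0.04, SE 0.073, edgeR adjusted p = 0.668), and rose by 0.22 with the trends with exon length and GC content removed. Cox5a, assembled early with Cox4i1, was at 103, 109.6 and 119 CPM against 105, 104 and 97.9 CPM. The ratio of Cox4i1 to Cox5a counts was 1.93, 2.39 and 2.02 with DMSO, against 1.29, 1.28 and 1.31 with the inhibitor, lower in every inhibitor library. The general isoforms Cox6a1 (144, 191 and 171 against 158, 145 and 151 CPM), Cox6b1 (80.8, 93.0 and 100.1 against 81.4, 79.0 and 80.8 CPM) and Cox7a2 (48.9, 59.8 and 52.7 against 50.9, 45 and 47.0 CPM) were not called.

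Isoforms known from particular tissues were low or absent. The muscle and heart isoform Cox6a2 was at 3.09, 4.01 and 3.93 CPM with DMSO and 3.39, 2.24 and 1.99 CPM with the inhibitor, and was called lower only without inhibitor replicate 1 (log2 fold change -0.80 against -0.54 with it, edgeR adjusted p = 0.0135 against 0.0767). Its exons overlap those of the integrin gene Itgad on the opposite strand. Cox7a1, another muscle isoform, was at 0.773, 0.561 and 0.349 against 0.27, 0.479 and 0.125 CPM, and Cox6b2, known from testis, at 0.884, 0.345 and 0.785 against 1.12, 1.6 and 0.955 CPM. Their log2 fold changes of -0.90 and 0.89 set the range given above, and neither was called (edgeR adjusted p = 0.176 and 0.0773). Cox4i2, Cox7b2 and Cox8c had no count in any library, and Cox8b had 3 counts in inhibitor replicate 1 and none elsewhere. These 4 were not tested.

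Of the 17 nuclear genes of the ATP synthase 7 fell, 1 rose and 9 were not called (median log2 fold change -0.25). The share called was 47.1%, against 51.5% of all genes tested. The summed level, dominated by the catalytic head, overlapped between the groups (2039, 2303 and 2246 against 2208, 2196 and 2138 CPM). None of the 5 genes of the F1 head, Atp5a1 (0.05), Atp5b (0.05), Atp5c1 (-0.02), Atp5d (0.23) and Atp5e (-0.09), was called, but with library totals Atp5a1 (0.16), Atp5b (0.16) and Atp5d (0.34) rose. Atp5d was also called higher without inhibitor replicate 3 (0.31) and by DESeq2 (0.23). Atp5b (ENSMUSG00000025393, chromosome 10, 128083273 to 128090391, plus strand), the catalytic beta subunit and the most abundant nuclear gene of the enzyme per exon length, was at 773, 831 and 836 CPM with DMSO and 845, 852 and 826 CPM with the inhibitor (SE 0.045, edgeR adjusted p = 0.395). Its values overlapped between the groups.

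All 4 genes of the peripheral stalk, which holds the head still while the rotor turns, were called, 3 lower and 1 higher. Atp5o (ENSMUSG00000022956, chromosome 16, 91925214 to 91931687, minus strand), the subunit OSCP that joins stalk and head, was at 84.1, 106 and 105 CPM with DMSO and 64.8, 60.2 and 50.5 CPM with the inhibitor (log2 fold change -0.75, SE 0.11, edgeR adjusted p = 0.000799). Atp5h (ENSMUSG00000034566, chromosome 11, 115415689 to 115419962, minus strand), subunit d, was at 43.2, 41.9 and 40.6 CPM with DMSO and 29.2, 31.3 and 30.8 CPM with the inhibitor (log2 fold change -0.46, SE 0.058, edgeR adjusted p = 0.000318). Neither gene's groups overlapped. Atp5f1 (ENSMUSG00000000563, chromosome 3, 105942698 to 105960099, minus strand), subunit b, went the other way, from 113, 145 and 136 CPM to 188, 189.7 and 192 CPM (log2 fold change 0.53, SE 0.083, edgeR adjusted p = 0.00104). It was the largest rise among called respiratory chain genes, and every inhibitor library was above every DMSO library. Atp5j, coupling factor 6, was at 47.6, 81.1 and 60.0 CPM with DMSO and 36.5, 46.4 and 43.6 CPM with the inhibitor. Its fall of -0.58 was not called without DMSO replicate 2 (-0.36), inhibitor replicate 1 (-0.48) or inhibitor replicate 3 (-0.60).

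The genes Atp5g1, Atp5g2 and Atp5g3 encode the same mature subunit c of the rotor ring. Atp5g3 fell from 111, 123 and 121 CPM to 82.1, 92.1 and 89.9 CPM (log2 fold change -0.43, SE 0.061, edgeR adjusted p = 0.000607), with no overlap. Atp5g1 fell by 0.26 on the log2 scale, a call lost without DMSO replicate 2 (-0.22) or inhibitor replicate 2 (-0.23) or 3 (-0.27), and Atp5g2, at 2.40 to 3.37 CPM over all libraries, was not called. Of the small membrane subunits, Atp5mpl (-0.48) and Atp5j2 (-0.25) fell. The call of Atp5j2 was lost without DMSO replicate 2, inhibitor replicate 1 or inhibitor replicate 3 (each -0.21). Atp5k (-0.37), Atp5l (-0.25) and Atp5s (0.23), coupling factor B, were not called, but Atp5k was called lower without DMSO replicate 2 (-0.54, edgeR adjusted p = 0.0153).

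The mtDNA mRNAs made up 2.44% to 2.76% of the counts, and their sum overlapped between the groups, at 25759, 25735 and 27008 CPM with DMSO and 25882, 25645 and 26374 CPM with the inhibitor. Under the main scaling 4 of 13 fell, all of complex I, and none rose (median -0.05). That share of falls (30.8%) was near the 26.5% of all genes tested, and the share called (30.8%) was below their 51.5%. With library totals in place of TMM only mt-Nd1 fell and mt-Co1, mt-Co2 and mt-Co3 rose. With the trend with exon length removed mt-Nd1 fell and mt-Co2, mt-Co3 and mt-Atp8 rose. The mt-Nd mRNAs summed to 7518, 7207 and 7612 CPM with DMSO and 6658, 6695 and 6860.4 CPM with the inhibitor, without overlap. The mt-Co mRNAs of complex IV summed to 14986, 15393 and 16004 CPM against 16062, 15859 and 16291 CPM, which overlapped. Measured as ratios of counts, which need no scaling, mt-Co1 over mt-Nd1 was 5.07, 5.45 and 5.16 with DMSO, against 6.42, 6.52 and 6.36 with the inhibitor. The ratio of mt-Co1 to mt-Cytb was 4.53, 4.77 and 4.61 against 5.07, 5.08 and 5.04. Both ratios were higher in every inhibitor library, so levels of these mRNAs shifted relative to each other whatever the scaling.

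**Figure D3:**
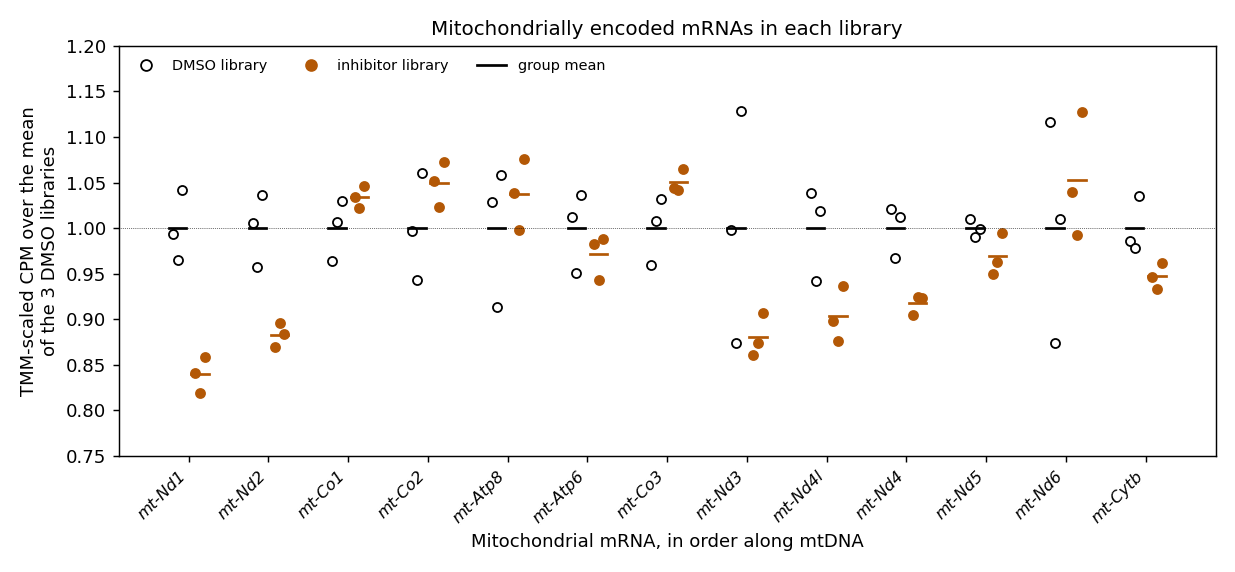
Level of each mtDNA mRNA in each library, divided by the mean of the 3 DMSO libraries, in order along mtDNA; lines are group means, and the axis runs from 0.75 to 1.2. The inhibitor libraries lie below all DMSO libraries for mt-Nd1, mt-Nd2, mt-Nd4, mt-Nd4l and mt-Cytb and above all of them for mt-Co3.

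The mt-Nd1 mRNA (ENSMUSG00000064341, mtDNA 2751 to 3707, plus strand) was at 1947, 1889.9 and 2041 CPM with DMSO and 1648, 1604 and 1682 CPM with the inhibitor, a log2 fold change of -0.25 (SE 0.046, edgeR adjusted p = 0.00209). It was the only mtDNA mRNA called lower in all 18 alternatives tried. Its neighbour mt-Nd2, separated from it by tRNA genes, was at 1035, 985 and 1066 CPM against 894, 922 and 909 CPM (-0.18, SE 0.043, edgeR adjusted p = 0.00892). Neither overlapped between the groups. The mt-Nd4 mRNA was at 1776, 1682 and 1759.8 against 1573, 1608 and 1606 CPM (-0.12, SE 0.041, edgeR adjusted p = 0.0343), and mt-Nd4l, on the same bicistronic mRNA, at 516, 468 and 506 against 446, 435 and 465 CPM (-0.15, SE 0.05, edgeR adjusted p = 0.038). The groups did not overlap, but both calls were fragile. That of mt-Nd4 was lost without DMSO replicate 3 or any 1 inhibitor library (-0.11 to -0.13), and with the replicate number as a block (-0.12, edgeR adjusted p = 0.0625), and that of mt-Nd4l without DMSO replicate 1 or 3 or inhibitor replicate 1 or 2 (-0.12 to -0.14). With no filter on low counts neither was called (edgeR adjusted p = 0.0532 and 0.0536), and with the trend with exon length removed mt-Nd4l stood at 0.06.

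The other complex I mRNAs of mtDNA were not called. The mt-Nd3 mRNA was at 153, 134 and 173 against 132, 134 and 139 CPM (-0.19, edgeR adjusted p = 0.0955) and was called lower without DMSO replicate 2 (-0.28). The mt-Nd5 mRNA was at 2072, 2032 and 2049 against 1947, 1974 and 2041 CPM (-0.05). For both, the groups met at a single library. The mt-Nd6 mRNA is the only one here made from the other strand and lacks a long poly(A) tail, and these libraries were made from captured mRNA. It was at 18.9, 14.8 and 17.1 against 17.6, 16.8 and 19.1 CPM (0.08), and its exon overlaps that of mt-Nd5. Per kb of exon its mean with DMSO was 32.6 CPM, against 6619 CPM for mt-Co1. The part of the tail and of the capture in that difference was not tested.

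In complexes III to V, mt-Cytb, the cytochrome b of complex III, was at 2175, 2158 and 2283 CPM with DMSO and 2088, 2059 and 2121 CPM with the inhibitor (-0.08, edgeR adjusted p = 0.157). The mt-Co1 mRNA, for the catalytic subunit of complex IV, was at 9863, 10291 and 10526 against 10575, 10456 and 10696 CPM (0.05, edgeR adjusted p = 0.433). These were small differences, and for mt-Co1 the groups overlapped. The mt-Co2 mRNA was at 2685, 2541 and 2856 against 2834, 2756 and 2891 CPM (0.07), and mt-Co3 at 2437, 2561 and 2622 against 2652, 2647 and 2704 CPM (0.07), the latter without overlap but not called (edgeR adjusted p = 0.305 and 0.216). The ATP synthase mRNA mt-Atp6 was at 377, 354 and 386 against 366, 351 and 368 CPM (-0.04) and mt-Atp8 at 702, 623 and 722 against 709, 681 and 734 CPM (0.05). Both overlapped between the groups, and reads over the shared 43 bases printed above cannot be assigned to 1 of them.

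Copies elsewhere in the genome bear on several of these values. Of all 50-base windows, 100% of those of mt-Co2 and 99.9% of mt-Co3 also occur in transcripts of other annotated genes, on either strand. So do 99.5% of mt-Atp6, 98.8% of mt-Nd4l, 98% of mt-Nd3, 62.2% of mt-Nd4 and 51.1% of mt-Co1. The other genes include pseudogenes on chromosome 1 that are nuclear copies of mtDNA. Those pseudogenes were given many counts, for example 46635 over the 6 libraries for Gm28661 and 39169 for Gm10925. With the copies' counts added to the mtDNA mRNAs, 4 still fell and none rose. Among nuclear genes, Ndufb6 shares 31.6% of its windows with other genes, Ndufa13 28.5% and Uqcrb 25.5%, the last chiefly with Gm16089. Atp5h shares 19.9% of its windows, chiefly with Gm10250 (6230 counts over the 6 libraries), and Ndufs5 shares 21.7% with BC002163 (1325 counts). Low counts of Cox7c, Ndufb4, Atp5g2 and Atp5l, which have such copies, are uncertain for the same reason. Whether strand was used in counting is not given, and the exons of 28 of the 97 genes overlap a gene on the opposite strand, among them Cox4i1 (Emc8), Ndufs1 (Eef1b2), Uqcrb (Gm10767), Atp5f1 (Wdr77), Atp5j (Gabpa) and Ndufa13 (Tssk6). Atp5o shares exon sequence with a further annotated gene of the same name on its own strand.

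Respiratory chain genes are short, and the median of all short genes was below 0. The 80 tested nuclear genes had a median exon length of 1631 bases, against 4332 for all tested genes with a known length. Among all genes under 1000 bases the median log2 fold change was -0.11, and among the 19 nuclear respiratory chain genes of that length it was -0.29. From 1000 to 2000 bases the medians were -0.04 and -0.20, from 2000 to 4000 bases 0.01 and -0.14, and from 4000 bases 0.03 and -0.26. Only 10 genes of the chain were in the last class. In each class the median of the chain was the lower one. With the trend of each library with exon length removed, 31 nuclear genes fell and 7 rose, and with the trend with GC content removed as well, 31 fell and 9 rose.

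Among genes that serve the chain without being subunits, rises were more frequent than falls in the assembly factors. Of 56 tested assembly factors, which insert cofactors and join subunits, 18 rose and 3 fell, with a median log2 fold change of 0.18. Among all genes tested 24.9% rose and 26.5% fell, 51.5% called in either direction. For complex I, 5 of 18 rose and none fell, led by p by Dmac1 (0.49), a membrane arm factor, and Ndufaf5 (0.49), which modifies Ndufs7. For complexes II and III, 4 of 10 rose and 1 fell, led by Uqcc3 (0.49) and Ttc19 (0.39), both complex III factors. For complex IV, 7 of 24 rose and 2 fell, led by Cox11 (0.74), a copper chaperone, and Cox10 (0.45), which modifies heme. For the ATP synthase, 2 of 4 rose, Atpaf2 (0.61) and Tmem242 (0.38). The 3 that fell were Uqcc2 (-0.26), Higd2a (-0.34) and Pet100 (-0.50). The median exon length of the 56 was 2530 bases, longer than that of the subunits.

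**Figure D4:**
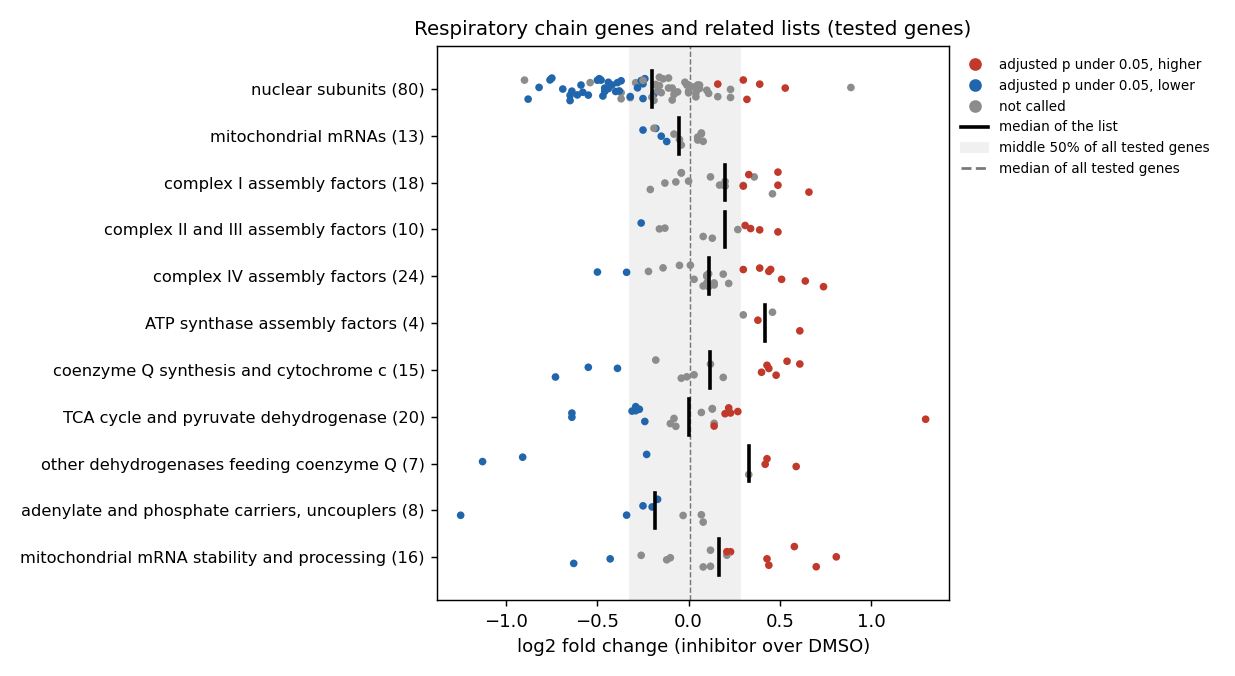
Log2 fold change (inhibitor over DMSO) of each tested gene, by list, with the number tested in brackets; points are coloured by call and placed at random heights within a list, black bars are medians, the grey band holds the middle 50% of all tested genes and the dashed line is their median. The nuclear subunits have their median at -0.20, and the medians of the assembly factor lists lie at 0.11 to 0.42.

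Other lists around the chain were mixed. The shares to set beside their counts are those of all genes tested, 51.5% called, 24.9% higher and 26.5% lower. Of 15 genes for coenzyme Q synthesis and cytochrome c, 6 rose and 3 fell (median 0.12), led by Coq5 (0.44), a methyltransferase of the pathway, and Coq10b (-0.39), a coenzyme Q-binding protein. Of 20 genes of the TCA cycle and pyruvate metabolism, 6 rose and 7 fell (median 0.00). They were led by Pcx (1.3), pyruvate carboxylase, and Acod1 (-0.64), which makes itaconate, an inhibitor of succinate dehydrogenase. Of 7 other enzymes that feed coenzyme Q, 3 rose and 3 fell (median 0.33), led by Gpd2 (-0.91), the mitochondrial glycerol phosphate dehydrogenase, and Etfb (-1.13), an electron transfer flavoprotein subunit. Of 8 carriers and uncouplers, 5 fell and none rose (median -0.19), led by Ucp2 (-1.25), an inner membrane carrier, and Vdac2 (-0.34), an outer membrane channel. Of 16 genes that process or stabilise mtDNA transcripts, 7 rose and 2 fell (median 0.17). They were led by Trmt10c (0.81), a subunit of mitochondrial RNase P, and Fastkd2 (0.70), an RNA-binding protein. Slirp, which with Lrpprc stabilises mtDNA mRNAs, fell by 0.63 on the log2 scale, while Lrpprc was not called (0.08).

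Several subunit genes share a bidirectional promoter region with a neighbour, and the paired genes did not always move alike. Of 19 such pairs, with starts at most 500 bases apart on opposite strands, Ndufa1 fell (-0.40) and Rnf113a1 rose (1.08, edgeR adjusted p = 0.00224), and Ndufb3 fell (-0.24) and Fam126b rose (0.39, edgeR adjusted p = 0.00405). Ndufa2 fell (-0.64) beside Ik, which was not called (-0.03). Atp5h (-0.46) and Kctd2 (-0.28, edgeR adjusted p = 0.0231) both fell. These pairs were named after their values were seen, and the differences within pairs were not tested.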

How the data were processed

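The authors deposited unnormalized counts, as whole numbers for each gene and library in 1 table. Tools named in the submitters' processing notes are HISAT2, edgeR and StringTie (1.3.0), with the build mm10. The sources used here give neither their roles nor the annotation nor the rules for strand and for reads that match several places. Symbols, coordinates (counted from 1) and exon lengths (the union of annotated exons) came from the GENCODE annotation of the same build, and promoter windows from RefSeq. The members and lists were chosen with earlier results of these data known.

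Samples were grouped by title, 3 libraries a group. Within groups, paired counts differed by 8.77 to 13.5 chi-square units per degree of freedom, more than sampling noise. The test was edgeR's quasi-likelihood F test (edgeR 4.0.16, R 4.3.3, TMM scaling, filterByExpr with a minimum count of 10, pretreatment as the only factor), with Benjamini-Hochberg adjustment over all 13815 tested genes. The procedure was tested on simulated data. In each nuclear complex the text gives in full the gene with the smallest p, the called gene with the largest change and the nuclear gene with the highest mean level per exon length over both groups, then all mtDNA mRNAs, the isoforms and the 2 smallest p of each list. Others were named after their values were seen. The values of 1 member are not reported here and not drawn among the nuclear genes, though it is kept in the counts. Precision follows from totals of 18441352 to 25089320 counts.

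Alternatives were median-of-ratios scaling, library totals, scaling without mtDNA mRNAs, no filter, at least 5 CPM on average, DESeq2 1.42.0, limma-voom (limma 3.58.1), an adjusted p under 0.01, the replicate number as a block, removal of trends with exon length alone and with GC content, and leaving out each library. The addition of nuclear copies to the mtDNA mRNAs was chosen after seeing the data.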

Additional observations from a re-analysis of the deposited data

How the results depend on the processing

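Of the 33 nuclear genes that fell, 25 kept that call under every alternative except, for 1 of them, the threshold of 0.01, and of the 5 that rose all but Ndufa10 kept it under all. Library totals raised the median of all genes from 0.01 to 0.12 and gave 14 nuclear rises, with 3 mtDNA rises and 1 fall. Removing the trend with exon length gave 3 mtDNA rises and 1 fall, and removing the trends with length and GC content gave 9 nuclear and 3 mtDNA rises, with 3 mtDNA falls. In these 2 settings mt-Nd4l turned to 0.06 and 0.03 (adjusted p = 0.394 and 0.696, by edgeR). An adjusted p under 0.01 left 2257 rises among all genes and 2 mtDNA falls, and no filter left 2 mtDNA falls. The cause of these changes was not tested. Leaving out single libraries gave 2 to 5 mtDNA falls, 26 to 44 nuclear falls and 4 to 6 nuclear rises.

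The counts showed no sign that the replicate numbers paired the samples (correlations of same-numbered deviations of -0.034, -0.003 and 0.024). The labels do not say whether they did. With the replicate block, 34 nuclear genes fell and 4 rose, and 3 mtDNA mRNAs fell, without mt-Nd4. The 0 mtDNA rises of the main test were also 0 by DESeq2 and limma-voom, and at an unadjusted p under 0.05. With 3 libraries a group, log2 differences of about 0.1 to 0.2 were at the edge of what the spread allowed.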
